A study of Mus musculus with 96 samples.

Results

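GFP_Barcode_2255 and GFP_Barcode_8037 are 2 of the 1331 barcodes of the LSK (GFP) library, out of 4675 barcodes in all, and each stands for 1 barcoded leukaemia clone. Both were selected on measured values. GFP_Barcode_2255 was taken because its share was higher in spleen than in bone marrow, and GFP_Barcode_8037 because in Ptprca hosts its share was higher in marrow. Their tissue leaning, and for GFP_Barcode_8037 its dependence on the host, are therefore given as a description without a test. The mean level in each host and the effect of adding GMP cells were not themselves used to choose them and were tested. Those tests are not fully independent of the choice, since they draw on the marrow and spleen values that set the leaning. Clone names are those of the deposited tables, which list barcodes by name.

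The series asked how the cell of origin shapes competition between leukaemia clones. LSK cells (Lin-, c-Kit+, Sca-1+) and GMP cells (Lin-, c-Kit+, CD34+, high for the Fcγ receptor) were sorted from marrow of female C57BL/6 donors aged 6 to 8 weeks. Both populations received an MLL-AF9 retrovirus, were cultured in IL-3, IL-6 and SCF, and were labelled with SPLINTR barcode libraries, GFP for LSK and mCherry for GMP. Cells of LSK origin alone went into 3 Ptprca mice (mice 1 to 3) and 4 NSG mice (mice 9 to 12), and LSK and GMP cells mixed went into 4 Ptprca mice (mice 17 to 20) and 4 NSG mice (mice 21 to 24). All groups thus carried MLL-AF9, and all recipients of LSK cells were given clones of a single transduced culture, so the 15 mice replicate the host and not the leukaemia. The age of the recipients is not given in the labels. Marrow and spleen were read from 14 of the 15 mice, and mouse 24 gave spleen only, which makes 29 libraries. The labels name genomic DNA as the material but describe a droplet-based cell protocol, which leaves the source of the DNA unclear.

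MLL-AF9 is a fusion oncogene that turns blood progenitors into serially transplantable myeloid leukaemia. LSK cells are an immature population that contains the haematopoietic stem cells, whereas granulocyte-monocyte progenitors are committed to the myeloid lineage. A SPLINTR barcode is an expressed DNA tag copied to every descendant of the cell it entered, so the share of a barcode follows the size of a clone relative to other clones. Bone marrow is the home tissue of these progenitors, and the mouse spleen is a second site of blood formation in which transplanted leukaemia expands. NSG mice lack B, T and NK cells, while Ptprca mice are an immunocompetent congenic strain that differs from C57BL/6 in the CD45 allele.

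Shares below are percentages of LSK-library reads in a library, so that reads of GMP clones do not enter them. The 29 libraries held 5239254 to 8499553 reads each, of which 1863456 or more were of the LSK library. The members were read 772 to 565371 times per library, which kept the 95% Wilson interval of every share in the mice within 7.06% of its value, counting error only. A share is relative, and a lower share does not show fewer cells. Of the 29 libraries, 3 stood apart in purity. They were the marrow of NSG mouse 12 and the spleen of NSG mouse 10, in which 0.103% and 0.128% of reads came from a library the mouse had not received, and the spleen of Ptprca mouse 18, with 1.06% of reads in barcodes seen in no pool.

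Before transplantation neither clone was among the large ones. In the LSK pool GFP_Barcode_2255 held 0.0391% (95% Wilson interval 0.0375 to 0.0407%) and ranked 382 of 679 clones that reached 100 CPM (counts per 1000000 reads of the LSK library). In the mixed pool it held 0.0354% of the LSK reads (0.033 to 0.038%) and ranked 413 of 686. GFP_Barcode_8037 held 0.154% of the LSK pool (0.151 to 0.157%) at rank 142, and 0.154% of the LSK reads of the mixed pool (0.148 to 0.159%) at rank 146. It was thus 3.95 times and 4.34 times as large as GFP_Barcode_2255 in the LSK and the mixed pool, each a single sample. In the mice the clones averaged nearly the same size, 2.40% for GFP_Barcode_2255 and 2.35% for GFP_Barcode_8037 over the 29 libraries, ranks 5 and 6 of 116 clones with a mean of 100 CPM or more. GFP_Barcode_2255 exceeded its pool share in all 29 libraries, by 2.73 to 228 times with a median of 29.1. GFP_Barcode_8037 reached 75.9 times its pool share, with a median of 9.85, and lay below the pool in 4 libraries, all from NSG mice. Those were the marrow of mice 9, 22 and 23 and the spleen of mouse 23.

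In Ptprca mice given LSK cells alone, GFP_Barcode_2255 held a far larger share of the spleen than of the marrow. Its share in marrow and in spleen was 1.18% and 7.46% in mouse 1, 1.17% and 8.89% in mouse 2, and 0.274% and 6.52% in mouse 3. Spleen exceeded marrow 6.32 times, 7.58 times and 23.8 times in these mice, and the wide span came from the marrow of mouse 3. Mean shares were 0.877% ± 0.522 in marrow and 7.63% ± 1.19 in spleen (SD, n = 3).

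This clone kept this pattern in Ptprca mice that also received GMP cells. Marrow and spleen shares were 1.03% and 7.81% in mouse 17, 0.321% and 6.46% in mouse 18, 0.318% and 7.18% in mouse 19, and 0.646% and 4.58% in mouse 20. Spleen was 7.59, 20.1, 22.6 and 7.09 times marrow, in that order of mice, with mice 18 and 19 high because their marrow shares were the lowest of the group. Mean shares were 0.579% ± 0.338 in marrow and 6.51% ± 1.40 in spleen (SD, n = 4). Across both kinds of Ptprca recipient the ranges of the tissues were far apart, at 0.274 to 1.18% in marrow and 4.58 to 8.89% in spleen. GFP_Barcode_2255 ranked 3 to 5 in each of the 7 spleens and 11 to 35 in the 7 marrows. In Ptprca spleen its level varied little between mice, with an SD of 0.30 on the log2 scale of the share against 0.95 in marrow.

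On a log2 scale of (CPM + 10), the marrow-to-spleen ratio of GFP_Barcode_2255 was -3.38 ± 1.03 in Ptprca mice with LSK cells alone (SD, n = 3) and -3.64 ± 0.89 in those with both cell types (SD, n = 4). Over the 7 mice it was -3.53 ± 0.88 (SD), an 11.5-fold excess in spleen and the most spleen-leaning mean of 115 clones with a sufficient level. Only 2 of those 115 clones, or 1.74%, were higher in spleen in each of the 7 Ptprca mice, namely GFP_Barcode_2255 and GFP_Barcode_1859, the largest LSK clone with a mean share of 31.6%. GFP_Barcode_1859 leaned much less, at -0.66. Marrow was higher in all 7 mice for 16.5% of the clones. The median clone itself leaned toward marrow in Ptprca mice, by 1.57 log2, and against the median of each mouse GFP_Barcode_2255 stood at -4.68 ± 0.99 (SD, n = 7). These figures describe the contrast by which the clone was picked.

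In NSG mice GFP_Barcode_2255 held smaller shares of the spleen than in Ptprca mice, and its tissues differed less. It still ranked 5 to 13 in the 8 NSG spleens and 5 to 15 in the 7 marrows. With LSK cells alone, marrow and spleen shares were 0.117% and 0.492% in mouse 9, 0.382% and 0.528% in mouse 10, 2.24% and 3.87% in mouse 11, and 1.86% and 2.45% in mouse 12. Spleen was higher in all 4 mice, by 4.21 times in mouse 9 and by 1.32 to 1.73 times in the other three, while mice differed far more from each other than tissues did. Mean shares were 1.15% ± 1.06 in marrow and 1.83% ± 1.64 in spleen (SD, n = 4).

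With GMP cells also present the leaning of GFP_Barcode_2255 in NSG mice was close to 0. Marrow and spleen shares were 0.448% and 0.334% in mouse 21, 1.43% and 1.02% in mouse 22, and 0.0968% and 0.121% in mouse 23, and the spleen of mouse 24 held 0.243%. Marrow was the higher tissue in mice 21 and 22, and spleen in mouse 23. The log2 marrow-to-spleen ratio was -0.93 ± 0.78 with LSK cells alone (SD, n = 4) and 0.20 ± 0.45 with both cell types (SD, n = 3). Over 7 NSG mice it was -0.45 ± 0.85 (SD), 5 of 7 toward spleen, at rank 28 of 115 from the spleen end. No clone was higher in spleen in all 7 NSG mice (0%) and 1 was higher in marrow in all 7 (0.87%). A clone without reads in both tissues has a ratio of 0 and counts toward neither. The median ratio of the 115 clones was 0 in mice 9, 11 and 23. These percentages, and ranks among the 115 clones in NSG mice, are therefore set in part by clones with few or no reads there.

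GFP_Barcode_8037 showed the opposite order of tissues in Ptprca mice. With LSK cells alone, marrow and spleen shares were 6.21% and 1.29% in mouse 1, 3.76% and 1.83% in mouse 2, and 2.04% and 1.06% in mouse 3. Marrow exceeded spleen in all 3 mice and the ranges did not overlap, with mouse 1 the highest in marrow. Mean shares were 4.0% ± 2.10 in marrow and 1.39% ± 0.394 in spleen (SD, n = 3).

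With GMP cells present in Ptprca mice the marrow share of GFP_Barcode_8037 varied more. Marrow and spleen shares were 2.06% and 0.518% in mouse 17, 2.99% and 1.56% in mouse 18, 11.2% and 0.708% in mouse 19, and 1.56% and 1.51% in mouse 20. Mouse 19 stood far above the others in marrow, where the clone was the second largest, and in mouse 20 the tissues were nearly equal. Marrow was still the higher tissue in each of the 4 mice, and the tissue ranges met where the spleen of mouse 18 equalled the marrow of mouse 20 to 3 digits. Mean shares were 4.44% ± 4.52 in marrow and 1.08% ± 0.540 in spleen (SD, n = 4). The clone ranked 2 to 9 in the 7 Ptprca marrows and 8 to 14 in the 7 spleens.

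The log2 marrow-to-spleen ratio of GFP_Barcode_8037 was 1.41 ± 0.74 in Ptprca mice with LSK cells alone (SD, n = 3) and 1.74 ± 1.69 in those with both cell types (SD, n = 4), though it turned to -1.22 and -0.80 when each library was centred on its median clone. Over the 7 mice it was 1.60 ± 1.28 (SD), a 3.03-fold excess in marrow. This was an ordinary value among the 115 clones, whose median was 1.57, and GFP_Barcode_8037 ranked 59 from the spleen end. Against the median of the clones' ratios in the same mouse, GFP_Barcode_8037 was higher in 3 of 7 mice, with a mean difference of 0.45 ± 1.61 (SD). The centring above used the median share of each library instead, which is a different reference. By raw share the clone was thus one of the 16.5% that were higher in marrow in every Ptprca mouse, but it did not lean to marrow more than the typical tested clone did.

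In NSG mice GFP_Barcode_8037 leaned to spleen, the reverse of its order by raw share in Ptprca mice. With LSK cells alone, marrow and spleen shares were 0.0439% and 0.939% in mouse 9, 1.16% and 0.939% in mouse 10, 1.45% and 1.64% in mouse 11, and 0.230% and 1.34% in mouse 12. Spleen shares were close to each other, whereas marrow shares were low in mice 9 and 12 and similar to spleen in mice 10 and 11. Mean shares were 0.722% ± 0.690 in marrow and 1.21% ± 0.341 in spleen (SD, n = 4).

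With GMP cells present, marrow and spleen shares of GFP_Barcode_8037 in NSG mice were 5.92% and 11.7% in mouse 21, 0.111% and 2.40% in mouse 22, and 0.0155% and 0.126% in mouse 23, and the spleen of mouse 24 held 1.78%. Spleen was the higher tissue in all 3 mice with both libraries, and mouse 21 was high in both tissues while mouse 23 was low in both. Mean shares were 2.01% ± 3.38 in marrow (SD, n = 3) and 3.99% ± 5.20 in spleen (SD, n = 4).

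The log2 marrow-to-spleen ratio of GFP_Barcode_8037 in NSG mice was -1.70 ± 2.18 with LSK cells alone (SD, n = 4) and -2.78 ± 1.73 with both cell types (SD, n = 3). Over 7 NSG mice it was -2.16 ± 1.92 (SD), a 4.47-fold excess in spleen, with 6 of 7 mice in that direction and rank 3 of 115 from the spleen end. Only mouse 10 was higher in marrow, by 0.30 log2. The median clone of NSG mice had a ratio of -0.045, and GFP_Barcode_8037 lay -2.14 ± 1.92 from the median of each mouse (SD, n = 7). In NSG hosts it was therefore GFP_Barcode_8037, and not GFP_Barcode_2255, whose mean lay farther toward spleen.

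Dividing the clones by each other within a library removes the denominator they share. In Ptprca mice with LSK cells alone, GFP_Barcode_2255 was 0.190, 0.312 and 0.135 times GFP_Barcode_8037 in the marrow of mice 1, 2 and 3, and 5.79, 4.86 and 6.13 times in their spleens. In those with GMP cells also, it was 0.501, 0.107, 0.0285 and 0.414 times in the marrow of mice 17 to 20 and 15.1, 4.13, 10.1 and 3.02 times in their spleens. The marrow values lay on either side of the pools' ratios, 0.253 and 0.231, while all 7 spleen values lay above them by far. The order of the clones was reversed between the tissues in 7 of 7 Ptprca mice, and the ratio changed 7.31 to 355 times from marrow to spleen. Mouse 19 gave the largest change and mouse 20 the smallest.

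In NSG mice the clones did not separate by tissue in this way. With LSK cells alone, GFP_Barcode_2255 was 2.66, 0.330, 1.54 and 8.08 times GFP_Barcode_8037 in the marrow of mice 9 to 12 and 0.523, 0.562, 2.36 and 1.83 times in their spleens. With both cell types it was 0.0758, 12.9 and 6.26 times in the marrow of mice 21 to 23, and 0.0286, 0.425, 0.963 and 0.136 times in the spleens of mice 21 to 24. The ratio was higher in spleen than in marrow in 2 of 4 mice with LSK cells alone and in 0 of 3 with both. The log2 difference of the pair, marrow minus spleen, was -4.80 ± 0.78 (SD, n = 3) and -5.38 ± 2.32 (SD, n = 4) in Ptprca mice with LSK cells alone and with both, and 0.78 ± 1.70 (SD, n = 4) and 3.01 ± 1.78 (SD, n = 3) in NSG mice. No test is given, since tissue leaning and host were used to choose the pair.

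The log2(CPM + 10) of each clone was averaged over marrow and spleen of a mouse and compared between hosts with limma. Percentages per mouse given beside these tests are plain means of its marrow and spleen shares. They can rank mice and groups differently from the log2 means. Both clones passed the filter of a mean of 100 CPM in every comparison below. In LSK recipients 52.4% of 103 clones were called at an adjusted p under 0.05, 49.5% of all as higher in Ptprca mice. In mixed recipients 53.6% of 112 were called and 50.9% were higher in Ptprca mice. The median clone was 2.86 log2 higher in Ptprca mice in LSK recipients and 2.72 in mixed recipients. These medians depended on the pseudocount, at 3.88 and 4.17 with 1 CPM and at 1.47 and 1.32 with 100 CPM. Only 20 to 49 clones reached 100 CPM in an NSG library, against 57 to 126 in a Ptprca library. Values relative to the median clone therefore partly reflect clones with few or no reads in NSG mice. After centring on the median clone, 1 clone was called higher and 15 lower in Ptprca mice in both comparisons. Each host came in a table of its own, and handling of the samples that differed along with the host cannot be told apart from it.

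GFP_Barcode_2255 held 3.40, 4.32 and 5.03% on average over tissues at its lowest, median and highest in Ptprca mice with LSK cells alone, against 0.304 to 3.05% with a median of 1.31% in NSG mice. The ranges of these plain means did not overlap, but NSG mouse 11, the highest of its group, came near the lowest Ptprca value. On the mean of log2 values, which was tested, the groups did overlap, with NSG mice 11 and 12 above Ptprca mouse 3. The difference, Ptprca minus NSG, was 1.37 log2 (SE 0.92) and was not called (limma, adjusted p = 0.218), and it turned to -2.59 with centring on the median clone and to -0.98 with edgeR and TMM scaling. Leaving out 1 mouse gave 0.73 (without mouse 9) to 1.93 (without mouse 11). Since the clone was chosen by tissue, the differences within a tissue are given without a test, 0.14 log2 in marrow and 2.59 in spleen, where the median clone differed by 4.14 and 1.84.

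In mixed recipients GFP_Barcode_2255 held 2.61 to 4.42% in Ptprca mice, with a median of 3.57%, and 0.109 to 1.23% in NSG mice, with a median of 0.317%. The groups did not overlap, and the difference of 2.44 log2 (SE 0.84) was called higher in Ptprca mice (limma, adjusted p = 0.0301), as were 50.9% of the clones tested. Relative to the median clone the sign turned, to -2.05 log2 (limma, adjusted p = 0.0970), and with edgeR and TMM scaling the difference was 0.50 log2 (adjusted p = 0.813). By tissue, again without a test, it was 0.36 log2 in marrow and 4.33 in spleen, where the median clone differed by 3.55 and 1.98. The called level averages both tissues and so holds the spleen value by which the clone was chosen. The call is therefore not independent of that choice. The call was lost without any 1 of mice 17, 18, 19, 20 and 24, with limma adjusted p of 0.0549 to 0.102. It was also lost without the libraries that stood apart in purity (1.89 log2, limma, adjusted p = 0.128).

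By tissue, the spleen shares of GFP_Barcode_2255 ran from 4.58 to 8.89% in 7 Ptprca mice, with a median of 7.18%, and from 0.121 to 3.87% in 8 NSG mice, with a median of 0.510%. These ranges did not overlap. Its marrow shares ran from 0.274 to 1.18% in Ptprca mice, with a median of 0.646%, and from 0.0968 to 2.24% in NSG mice, with a median of 0.448%, and overlapped widely. The spleen values thus separated the hosts and the marrow values did not, but the clone was chosen for a higher share in spleen than in marrow. In spleen alone, limma called a host difference for 50 of 103 clones in LSK recipients and 46 of 112 in mixed recipients. How many other clones had spleen ranges without overlap was not counted.

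GFP_Barcode_8037 held 1.55, 2.80 and 3.75% in the 3 Ptprca mice with LSK cells alone and 0.492 to 1.55% in the 4 NSG mice, with a median of 0.917%. The lowest Ptprca mouse and the highest NSG mouse were almost equal. The difference of 1.76 log2 (SE 0.72) was not called (limma, adjusted p = 0.0700), and it turned to -2.20 with centring on the median clone and to -1.02 with edgeR and TMM scaling. It was called without mouse 11 (2.17 log2, limma, adjusted p = 0.0305), as were 53.7% of 108 clones, and without the largest clone in the denominator (1.98 log2, limma, adjusted p = 0.0483), as were 57.3% of 103. By tissue, without a test, it was 3.32 log2 in marrow and 0.20 in spleen.

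In mixed recipients GFP_Barcode_8037 held 1.29 to 5.93% in Ptprca mice, with a median of 1.91%, and 0.0705 to 8.79% in NSG mice, with a median of 1.52%. The groups overlapped entirely, with NSG mouse 21 above and NSG mouse 23 below every Ptprca mouse. The difference was 1.2 log2 (SE 1.35, limma, adjusted p = 0.451), with a 95% interval of -1.80 to 4.19. Its direction depended on mouse 23, without which it was -0.16 log2 (limma, adjusted p = 0.882), and it was also below 0 with centring (-3.29) and with edgeR (-2.48 with and -0.34 without TMM). By tissue, without a test, it was 3.86 log2 in marrow and -0.71 in spleen.

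The presence of GMP cells changed neither clone's share of the LSK library past the threshold. LSK-library reads made up 50.6% of the mixed pool, and the effect of GMP cells and that of a smaller LSK dose cannot be told apart. In Ptprca mice GFP_Barcode_2255 averaged 4.25% ± 0.820 without (SD, n = 3) and 3.54% ± 0.755 with GMP cells (SD, n = 4), a difference of -0.38 log2 (95% interval -1.25 to 0.50; limma, adjusted p = 0.683). For GFP_Barcode_8037 the means were 2.70% ± 1.10 (SD, n = 3) and 2.76% ± 2.16 (SD, n = 4). Its mean log2 level, the measure tested, differed by -0.33 (-1.22 to 0.56; limma, adjusted p = 0.719), although its mean share did not fall. The groups overlapped for both clones, and 2.1% of 143 clones were called. Of all reads, GMP reads included, both clones fell in mixed Ptprca recipients, by 1.70 log2 for GFP_Barcode_2255 and 1.66 for GFP_Barcode_8037 (limma, adjusted p = 0.0121 each), in libraries in which the LSK library made up 32.4 to 50.1% of reads. In that comparison 21% of 143 clones were called, all lower, and the median clone was at -1.43 log2.

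In NSG mice GFP_Barcode_2255 averaged 1.49% ± 1.34 without and 0.492% ± 0.502 with GMP cells (SD, n = 4 each). The difference was -1.44 log2 (95% interval -3.59 to 0.71; limma, adjusted p = 0.672). GFP_Barcode_8037 averaged 0.968% ± 0.448 and 2.97% ± 3.94 (SD, n = 4 each). Its mean log2 level, the measure tested, differed by only 0.23 (-2.01 to 2.47; limma, adjusted p = 0.853), with a sign that turned without mouse 9, 21 or 24. The groups overlapped for both clones, and 4% of 50 clones were called. Neither clone's response to GMP cells differed between hosts past the threshold, with 1.07 log2 for GFP_Barcode_2255 (limma, adjusted p = 0.800) and -0.56 for GFP_Barcode_8037 (limma, adjusted p = 0.991), where 3.48% of 115 clones were called.

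The marrow-to-spleen ratio itself was compared with and without GMP cells over 14 mice, with the host as a term. Both clones were chosen by this ratio, with and without GMP cells, so a small change may follow partly from the choice. The tests below use those same ratios, are not independent of the choice, and allow no conclusion about GMP cells. For GFP_Barcode_2255 the ratio was 0.43 log2 higher toward marrow with GMP cells (95% interval -0.61 to 1.48; limma, adjusted p = 0.967; two-sided exact permutation p = 0.375). The sign differed by host. Among Ptprca mice the change was -0.26 log2 (exact permutation p = 0.771), and the ratios of the 2 kinds of recipient overlapped. Among NSG mice it was 1.13 log2 (exact permutation p = 0.0571, where the smallest possible is 0.0286), and the 4 ratios without GMP cells, -2.06 to -0.40, all lay below the 3 with them, -0.32 to 0.49. After adjustment over all clones that NSG change was not called (limma, adjusted p = 0.948). Among NSG mice alone limma called 0 of 50 clones, with 0 at an unadjusted p under 0.05. How many other clones had ratios that separated in this way was not counted.

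For GFP_Barcode_8037 the ratio was -0.38 log2 with GMP cells (95% interval -2.36 to 1.60; limma, adjusted p = 0.967; exact permutation p = 0.670). The change was 0.32 for Ptprca hosts (exact permutation p = 0.800) and -1.08 for NSG hosts (exact permutation p = 0.486). Without mouse 22 the overall sign turned, to 0.066. The 6 exact tests are unadjusted. The difference between hosts in this change was -1.39 log2 for GFP_Barcode_2255 (limma, adjusted p = 0.887) and 1.40 for GFP_Barcode_8037 (limma, adjusted p = 0.95). Limma called 0% of 115 clones for the ratio, with 8 at an unadjusted p under 0.05, and 0% for its difference between hosts, with 3. EdgeR was not run on ratios.

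The clones whose pattern was most like the members' were sought among 116 clones, as a description over libraries that share mice, pools and denominators. By log2 share over 29 libraries, GFP_Barcode_2255 was most like GFP_Barcode_1859, the largest LSK clone (Pearson r = 0.64; 0.80 over 14 Ptprca libraries and 0.24 over 15 NSG libraries). GFP_Barcode_11863 and GFP_Barcode_102032 followed with r = 0.55 each, and both fell to 0.16 and 0.21 within Ptprca libraries. By the ratio over 14 mice, GFP_Barcode_1859 was again first at 0.60, ahead of GFP_Barcode_9096 at 0.59 and GFP_Barcode_43817 at 0.58. Within NSG mice the correlation of ratios with GFP_Barcode_1859 was -0.53 over 7 mice, so the likeness to that clone lay in the Ptprca mice, where it was 0.74. The other clones were alike within both hosts, GFP_Barcode_9096 at 0.61 in Ptprca and 0.51 in NSG mice, and GFP_Barcode_43817 at 0.83 and 0.70.

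By share GFP_Barcode_8037 was most like GFP_Barcode_16972, a clone with a mean share of 1.66% (r = 0.58; 0.52 in Ptprca and 0.56 in NSG libraries). The next were GFP_Barcode_102032 and GFP_Barcode_11863 at 0.57 each, with values near 0 in Ptprca libraries. By ratio the 3 most alike were GFP_Barcode_37432 at 0.80, GFP_Barcode_87062 at 0.77 and GFP_Barcode_14590 at 0.75, all clones with a mean share under 0.04% that leaned to marrow in Ptprca mice, by 3.92, 3.78 and 2.59 log2, and had ratios near 0 in NSG mice. Such a ratio also arises where a clone has few or no reads in both tissues. Within NSG mice the correlations of these 3 clones with GFP_Barcode_8037 were -0.058, -0.38 and 0.069, and within Ptprca mice 0.64, 0.51 and 0.67, over 7 mice each. The members were also set against each other. They were chosen for opposite tissue leaning in Ptprca mice, so negative correlations there or over both hosts may follow from that choice. Their shares correlated at 0.20 over 29 libraries, with -0.68 in Ptprca and 0.40 in NSG libraries, and their ratios at -0.69 over 14 mice, with -0.25 within Ptprca and 0.17 within NSG mice.

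Mice that received GMP cells only gave the level to be had without transplanted LSK cells. Over their 16 libraries GFP_Barcode_2255 had a median of 1.07 CPM of all reads and GFP_Barcode_8037 of 0.726, and the GMP pool held 1.44 and 0.206 CPM. The highest values were in the spleens of NSG mice 13 and 14, at 100.5 and 93.9 CPM for GFP_Barcode_2255 and 72.5 and 22.6 CPM for GFP_Barcode_8037. These 2 spleens also held the most LSK-library reads of the NSG mice given GMP cells, 0.462 and 0.538%. All 16 values lay below the lowest in the 29 libraries of LSK recipients, which was 635 CPM for GFP_Barcode_2255 and 102 for GFP_Barcode_8037.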

How the data were processed

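Barcodes were amplified from genomic DNA and sequenced, with 2 PCR duplicates per tissue or pool. Per the submitters' processing notes Bowtie 1.2.2 and R 3.6 were used; settings and barcode reference are not given in the sources used here. The authors deposited filtered, collapsed values in CPM (counts per 1000000 barcode reads), 1 column per tissue or pool, in a table per host; how the duplicates were combined is not recorded. Within a column, 100% of values were an integer number of steps (tolerance 0.01); a step was taken as 1 read, which gave 4257581 to 8499553 reads per column over 48 columns. PCR reads can be copies of 1 molecule, so intervals cover counting error only.

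Each column was rescaled to its LSK-library (GFP) reads. The mouse was the replicate, marrow and spleen of a mouse being averaged for levels and paired by animal (the replicate block) for ratios; mouse 24 entered levels by spleen alone and no ratio. Clones with a mean of at least 100 CPM were tested with limma 3.58.1 in R 4.3.3 (two-sided, lmFit then eBayes, trend on) using log2(CPM + 10), which understates changes of small clones. P-values were adjusted by Benjamini-Hochberg over all clones tested, with a threshold of 0.05, and each fit held only the groups it compared. Exact tests permuted the GMP label within host. The scripts were tested on simulated data. Named clones were the members, for each the 3 most alike by share and the 3 by ratio (Pearson r), and the largest LSK clone. Members, lists and tests were chosen with earlier results of these data known. Alternatives were pseudocounts of 1 and 100 CPM, none for ratios, minima of 0, 10 and 1000 CPM, CPM of all reads, shares without the largest clone, centring on the median clone, each tissue or host alone, 1 fit over all groups, no trend, edgeR 4.0.16 run on reads (TMM scaling or none), ratios without the pairing, leaving out 3 libraries (over 0.1% of reads from a library not received, or over 1% from no pool), and omission of single mice.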

Additional observations from a re-analysis of the deposited data

Results flagged for a closer look

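The share of GFP_Barcode_8037 in the marrow of mixed Ptprca mouse 19 was 11.2%, while the other 3 mice of its group held 1.56 to 2.99%, a gap wide enough for Dixon's test at the 95% level. The test was run on 20 groups of values, and chance alone singles out about 1 in 20.

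In mixed recipients the log2 marrow-to-spleen ratio of GFP_Barcode_8037 was 4.52 higher in Ptprca than in NSG mice, with all 4 Ptprca mice toward marrow and all 3 NSG mice toward spleen. This difference was not tested, since the clone was chosen for its host-dependent leaning.

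Reads of both clones appeared in the spleen of NSG mouse 13, which was given no LSK cells, at 100.5 CPM for GFP_Barcode_2255 and 72.5 CPM for GFP_Barcode_8037, above the 1.44 and 0.206 CPM of the GMP pool.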

How the results depend on the processing

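Host differences (log2, Ptprca minus NSG) depended on the scaling. Centred on the median clone they were -2.59 for GFP_Barcode_2255 and -2.20 for GFP_Barcode_8037 in LSK recipients, and -2.05 and -3.29 in mixed recipients. With edgeR and TMM scaling they were -0.98, -1.02, 0.50 and -2.48, in the same order, and without TMM -0.34 for GFP_Barcode_8037 in mixed recipients. In LSK recipients GFP_Barcode_8037 was called without the largest clone (1.98). Single-tissue values, given without a test because tissue chose the clones, were 0.14 in marrow and 2.59 in spleen for GFP_Barcode_2255 and 3.32 and 0.20 for GFP_Barcode_8037 in LSK recipients, and 0.36 and 4.33, and 3.86 and -0.71, in mixed recipients. In mixed recipients the call of GFP_Barcode_2255 was lost with no minimum (2.44), CPM of all reads (1.90), and without the impure libraries (1.89). Leaving out 1 mouse gave 1.90 to 3.05 for GFP_Barcode_2255 and -0.16 to 2.34 for GFP_Barcode_8037 in mixed, and 0.73 to 1.93 and 1.2 to 2.17 in LSK recipients.

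Changes in share with GMP cells in Ptprca mice were -1.70 and -1.66 of all reads (called), 0.13 and 0.17 with centring, and for GFP_Barcode_2255 0.18 and 0.038 with edgeR with and without TMM. In NSG mice GFP_Barcode_2255 was 0.26 with centring, and GFP_Barcode_8037 was -0.55 of all reads, -0.71 in marrow alone, -0.12 without the impure libraries and -0.91 to 1.59 without 1 mouse. The ratio with GMP cells was -0.26 and 0.32 in Ptprca mice alone, and for GFP_Barcode_8037 0.10 without the impure libraries and -0.78 to 0.066 without 1 mouse. Without the pairing by mouse (no replicate block) it was 0.50 and -0.41, and the block changed no call. Mean ratios in Ptprca mice with centring were -6.02 and -6.17 for GFP_Barcode_2255, and -1.22 and -0.80 for GFP_Barcode_8037, with LSK cells alone and with both. Over all clones, host calls were 51 higher and 3 lower in Ptprca mice in LSK recipients, 17 and 7 with edgeR and TMM, and 57 and 3 in mixed recipients, 31 and 7 with edgeR and TMM. Centring left 1 higher and 15 lower in each. Calls with GMP cells were 3 in Ptprca and 2 in NSG mice by limma (30 and 5 of all reads) and 0 in both by edgeR, with 9 and 6 at an unadjusted p under 0.05 with TMM. Apart from the definition of the alternatives, the cause of these shifts was not tested. The other 160 values under an alternative, and 105 with a mouse left out, kept their direction and their side of the threshold, or moved by less than 1 SD. With 3 or 4 mice a group, the spread between mice and not the depth limits these results.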
